A study of Mus musculus with 27 samples.

Results

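The motile cilia genes are 36 listed mouse genes whose products build, power or switch on the beating cilium, and 34 of them had a row in the deposited table of lung RNA. The members were found by gene symbol among 20239 named probe sets, each of which stands for a single gene. Drc1 and Cfap43 matched no row and were not analysed here. RNA came from the right lung of females aged 11 weeks, 3 from each of 9 inbred strains, and was hybridised to 27 whole-transcript arrays, 1 per mouse. The tissue is labelled as normal lung, and no treatment is given for any group. Each strain carries labels for spontaneous pulmonary adenoma, a benign lung tumour. C57BL/6J, DBA/2J and A/J are labelled increased in both frequency and severity. C57L/J, 129S1/SvlmJ, C3H/HeJ and BALB/cJ are labelled increased in severity and decreased in frequency, and KK/HlJ and MRL/MpJ are labelled decreased in both. A class is therefore a property of an inbred strain, shared by its 3 mice, and not something measured in the lungs on these arrays.

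Motile cilia cover the multiciliated cells of the airways and clear mucus and particles from the lung. Each cilium is a ring of doublet microtubules around a central pair. Dynein arms slide the doublets past each other, radial spokes carry signals between the central pair and the arms, and ruler proteins set the repeat along the doublet. FOXJ1 and the RFX factors switch on the genes for these parts, and RFX proteins bind a motif called the X-box. Because the samples are whole lung, fewer ciliated cells and less RNA per ciliated cell cannot be told apart in any value below.

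All values are log2 signal as deposited, on which a difference of 1 is a doubling. Array medians lay between 6.24 and 6.37. Only 1 member, Spag6, was dim, with a highest strain mean of 5.09 against 5.25 for Sry, the brightest Y-linked gene in these females. Without Sry the highest Y-linked strain mean was 3.56, so the dim level rests on the Sry probe set alone. The arrays labelled C57L/J held 11.17 ± 0.09 (SD, n = 3) for H2-Ea, a histocompatibility gene that C57BL/6J mice do not express, whereas C57BL/6J held 4.79 ± 0.22. The counts of members called by strain and by adenoma frequency, and the differences of several named genes, are therefore also given without the arrays labelled C57L/J. The arrays of a strain carry neighbouring file numbers in the labels, other than the third MRL/MpJ array, so array order and strain cannot be told apart.

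Upstream sequences of members are shown first because the X-box is the motif through which RFX factors act on cilia genes. RefSeq promoters on GRCm38.p6, from 250 bases before to 50 bases after the gene start, were found for 29 of the 34 members. The full X-box, searched on both strands as GTNNCC and GGNAAC with 2 bases of any kind between them, was present in 4 of the 29 (Tekt4, Zmynd10, Lrriq1 and Ttc29), or 13.8%, against 1.49% of 27025 genes with such a window. The shorter core GTTGCC, searched on both strands and able to overlap the X-box, was present in 15 of 29, or 51.7%, against 14.1% of genes. The forkhead motif TGTTTAC, of the kind FOXJ1 binds, was present in 1 member, Ak7, or 3.45%, against 4.05% of genes. The 100 bases before the gene start are printed for 2 members with the full X-box and 2 members with the core alone, with the motif letters in capitals.
Lrriq1, chr10:103236323-103236422, minus strand: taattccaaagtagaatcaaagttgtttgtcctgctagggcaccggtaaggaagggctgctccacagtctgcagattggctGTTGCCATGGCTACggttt
Ttc29, chr8:78213242-78213341, plus strand: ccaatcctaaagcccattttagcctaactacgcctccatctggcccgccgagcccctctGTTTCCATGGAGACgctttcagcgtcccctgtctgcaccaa
Cfap161, chr7:83794840-83794939, minus strand: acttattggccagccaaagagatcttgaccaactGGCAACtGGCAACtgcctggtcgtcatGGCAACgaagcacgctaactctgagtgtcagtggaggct
Ccdc113, chr8:95534000-95534099, plus strand: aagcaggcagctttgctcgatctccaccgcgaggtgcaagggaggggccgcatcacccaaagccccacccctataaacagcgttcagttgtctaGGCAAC
Cfap161 carried 3 copies of the core on the opposite strand, spelled GGCAAC, within this stretch. Of the 15 members with the core, 9 differed among strains in the test described next. So did 13 of the 14 members with a window and no core, against 28.9% of all named genes. The members with the core that did not differ were Rfx2, Rfx3, Mcidas, Spag6, Spag16 and Tekt1. All 4 members with the full X-box differed, and of these Tekt4, Zmynd10 and Lrriq1 also carried the core. A link between motif and strain difference was not tested. The motifs are letter matches, and binding was not measured.

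The first comparison asked which members differ among the 9 strains. By limma's moderated F test, 27 of the 34 members, or 79.4%, passed a Benjamini-Hochberg adjusted p of 0.05, whereas 28.9% of all named genes did. The range between the highest and the lowest strain mean had a median of 0.64 over the members and of 0.34 over all named genes. 129S1/SvlmJ or BALB/cJ had the lowest strain mean in 28 of the 34 members, and C57BL/6J or DBA/2J had the highest in 22. The 7 members that missed the threshold were Rfx2, Rfx3, Mcidas, Ccdc40, Spag6, Spag16 and Tekt1, with Mcidas at an adjusted p of 0.051. Leaving out the arrays labelled C57L/J left the count at 27.

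The members varied largely together from array to array. Taken per array as the median over members of the deviation from the gene's own mean, 129S1/SvlmJ stood at -0.23, -0.38 and -0.24 and BALB/cJ at -0.30, -0.18 and -0.20. C3H/HeJ lay at -0.04, -0.14 and -0.19. The 9 arrays of these 3 strains were all below the 9 arrays of DBA/2J (0.25, 0.18 and 0.14), C57BL/6J (0.12, 0.22 and 0.20) and C57L/J (0.19, 0.11 and 0.08). KK/HlJ spanned much of the range within a single strain, at 0.05, 0.10 and -0.22, and A/J ran from -0.02 to 0.24. The correlation of a member with the mean of the other members over the 27 arrays had a median of 0.79, and it was at least 0.80 for 16 members. With the strain means removed, so that only mice of a strain are compared, the median correlation was 0.65. These correlations describe arrays that share strain and array-wide level. Mcidas ran the other way, at -0.68, and Rfx2, Spag6, Tppp3 and Dnah1 were also under 0.50.

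**Figure D1:**
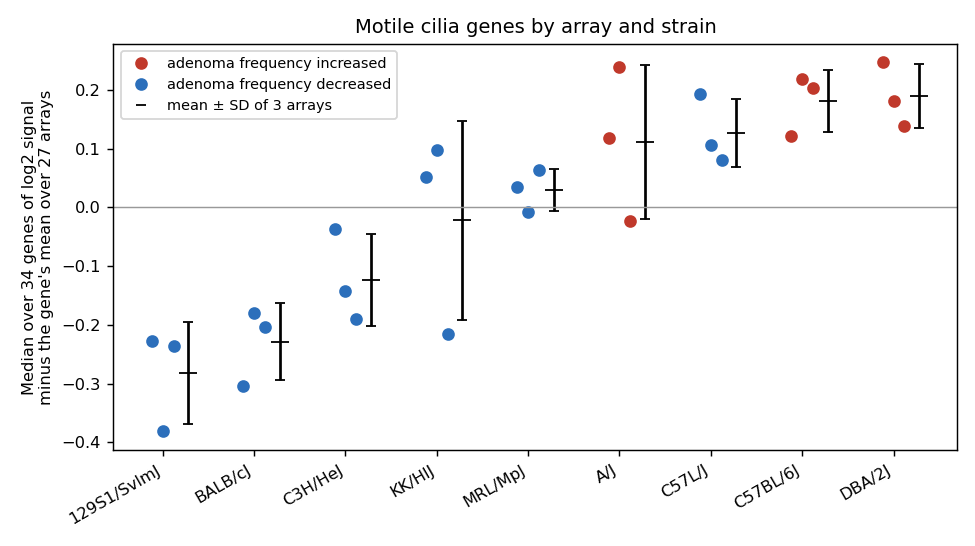
Each point is 1 array; the vertical axis is the median over the 34 motile cilia genes of the log2 signal minus the gene's mean over 27 arrays, with bars for the mean ± SD of 3 arrays. The 129S1/SvlmJ arrays reach down to -0.38 and the DBA/2J arrays up to 0.25, and KK/HlJ holds the widest spread.

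When each strain was compared with the mean of the other 8, the calls ran nearly all in a single direction. In 129S1/SvlmJ, 21 members were lower and 1, Mcidas, was higher, against 6.43% lower and 3.54% higher among all named genes, and the median difference was -0.32, or -19.9%. In BALB/cJ, 15 were called, all of them lower, against 3.01% lower and 2.48% higher, with a median of -0.26. Without its replicate 2, 129S1/SvlmJ had 12 lower calls, and without its replicate 1 BALB/cJ had 4. The medians without those arrays were -0.29 and -0.20.

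C57BL/6J had 13 calls, all higher, against 4.06% higher and 4.11% lower among all genes. DBA/2J had 10, all higher, against 2.87% higher and 1.94% lower. Their medians were 0.23 and 0.20. C57BL/6J had 4 without its replicate 2 and 7 without replicate 3, and DBA/2J had 4, 5 and 5 without replicates 1, 2 and 3. The arrays labelled C57L/J had 6 calls, all higher, against 3.69% higher and 2.94% lower (2 without replicate 1), with a median of 0.15. The 4 calls of A/J (Dnah5, Cfap161, Dynlrb2 and Armc3) were all higher, against 1.96% higher and 3.75% lower (2 without replicate 1 or 2), with a median of 0.12. C3H/HeJ had 5 calls (Dnah1, Dnah6, Ak7, Dynlrb2 and Armc3), all lower, against 3.08% lower and 4.18% higher, with a median of -0.12. It had 1 without replicate 2 and 2 without replicate 3. Replicate 2 of C3H/HeJ also carried skeletal muscle and fat genes, and the summed signal of 6 skeletal muscle markers ran from 405 to 7967 over the 3 mice, and that of 5 fat cell markers from 377 to 1589. Their part in the C3H/HeJ calls was not tested. MRL/MpJ had 3 calls, all lower (Rsph9, Tekt2 and Cfap161), against 5.61% lower and 6.83% higher, and 1 without replicate 1 or 2. KK/HlJ had 3 higher (Dnah1, Rsph1 and Tekt2) against 4.55% and 1 lower, Foxj1, against 2.83%, shares near the background. Without the arrays labelled C57L/J there were 21 lower in 129S1/SvlmJ, 13 in BALB/cJ, 4 in C3H/HeJ and 2 in MRL/MpJ, and 14 higher in C57BL/6J, 11 in DBA/2J, 4 in A/J and 3 in KK/HlJ. These counts follow the main direction of each strain. In the other direction, Tppp3 was then higher in 129S1/SvlmJ by 0.24 (limma, adjusted p = 0.0418). Ccdc39 and Cfap44 were then higher in MRL/MpJ by 0.34 and 0.28 (limma, adjusted p = 0.0237 and 0.0329). Over all named genes the median difference of a strain stayed between -0.05 and 0.04.

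The transcription factors, which act first in the program, gave few calls. FOXJ1, which commits airway cells to motile cilia, was the only factor of the 4 whose gene passed the F test (adjusted p = 0.0053). Foxj1 read 7.33, 7.30 and 7.10 in 129S1/SvlmJ, 7.30, 7.34 and 7.13 in KK/HlJ, and 7.75, 7.68 and 7.74 in C57BL/6J. The C57BL/6J arrays lay above both other strains with no overlap. Foxj1 read 7.77, 7.50 and 7.58 in C57L/J, 7.87, 7.61 and 7.35 in DBA/2J and 7.36, 7.43 and 7.48 in C3H/HeJ. It read 7.69, 7.84 and 7.54 in A/J, 7.62, 7.50 and 7.95 in MRL/MpJ and 7.44, 7.33 and 7.32 in BALB/cJ. A/J and MRL/MpJ were thus high for Foxj1, and BALB/cJ was near 129S1/SvlmJ. Against the mean of the other 8 strains, Foxj1 was lower in 129S1/SvlmJ by a log2 difference of -0.30 (SE 0.09, adjusted p = 0.0295) and in KK/HlJ by -0.29 (adjusted p = 0.0476). The call for Foxj1 in 129S1/SvlmJ did not hold after quantile normalization (adjusted p = 0.0581) or without any single 129S1/SvlmJ array (0.0558, 0.0858 and 0.230 without replicates 1, 2 and 3), and it held without the arrays labelled C57L/J (0.0401). Without those C57L/J arrays the call for Foxj1 in KK/HlJ did not hold (limma, adjusted p = 0.0644). Mcidas, whose product multicilin starts the multiciliated program, was higher in 129S1/SvlmJ, with a mean of 5.92 and a difference of 0.28 (adjusted p = 0.0378), although its F test did not pass. This call did not hold without the arrays labelled C57L/J (limma, adjusted p = 0.0559). Rfx2 and Rfx3 had no call in any strain, at F test adjusted p of 0.709 and 0.246.

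All 8 dynein heavy chains, the motor subunits, passed the F test. In 129S1/SvlmJ 6 of the 8 were lower and in BALB/cJ 4 were, while C57BL/6J had 3 higher. Among the outer arm chains, Dnah5 had a strain mean of 7.28 ± 0.14 (SD, n = 3) in 129S1/SvlmJ and 8.17 ± 0.12 in C57BL/6J, and these were differences of -0.58 (adjusted p = 4.79e-05) and 0.43 (adjusted p = 0.00118) from the other strains. Dnah11, whose product lies in the proximal part of the cilium, was lowest in BALB/cJ at 6.29 ± 0.04, a difference of -0.55 (adjusted p = 0.000137). Dnah9 was lower in BALB/cJ by -0.35 and in 129S1/SvlmJ by -0.26.

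Dnah6 of the inner arms had the smallest F test p among the heavy chains. Its arrays read 7.13, 7.05 and 7.30 in 129S1/SvlmJ and 7.41, 7.20 and 7.31 in C3H/HeJ. They read 7.94, 8.20 and 8.01 in C57BL/6J and 8.01, 8.01 and 8.05 in C57L/J. The lowest array of the latter strains was above every array of the former. Dnah6 read 8.03, 7.66 and 7.52 in KK/HlJ, 7.70, 7.65 and 7.87 in DBA/2J and 7.75, 7.88 and 7.59 in A/J. It read 7.70, 7.75 and 7.83 in MRL/MpJ and 7.38, 7.43 and 7.68 in BALB/cJ. The means of these strains lay in the middle. BALB/cJ was below every MRL/MpJ array, and KK/HlJ replicate 1 reached the C57BL/6J and C57L/J arrays. Dnah6 was lower in 129S1/SvlmJ by -0.58 (SE 0.08, adjusted p = 7.34e-05) and in C3H/HeJ by -0.41 (adjusted p = 0.00408), and higher in C57BL/6J by 0.43 (adjusted p = 0.00157). Without the arrays labelled C57L/J the Dnah6 differences were -0.53, -0.36 and 0.49, each still called. Dnah3 was lower by -0.53 in 129S1/SvlmJ and higher by 0.38 in DBA/2J, and Dnah12 was lower in 129S1/SvlmJ by -0.37. Dnah1, another inner arm chain, did not follow this order. It was highest in KK/HlJ at 6.60 ± 0.25, a difference of 0.56 (adjusted p = 3.19e-05), and lower in C3H/HeJ by -0.34 and in BALB/cJ by -0.28. The Dnah1 call in BALB/cJ did not hold without the arrays labelled C57L/J (limma, adjusted p = 0.0524). Dnah2 passed the F test but had no call in a single strain.

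The 3 radial spoke head proteins all passed the F test, and Rsph1 had the widest range of any member. Rsph1 read 8.21, 8.41 and 8.01 in KK/HlJ and 8.01, 8.14 and 8.13 in C57L/J. It read 6.65, 6.42 and 6.66 in 129S1/SvlmJ and 6.79, 7.10 and 6.80 in BALB/cJ. The KK/HlJ and C57L/J arrays overlapped each other and no array of another strain. Rsph1 read 7.29, 7.58 and 7.58 in C57BL/6J, 7.34, 7.19 and 7.04 in DBA/2J and 7.22, 7.14 and 7.06 in C3H/HeJ. It read 7.31, 7.49 and 7.16 in A/J and 7.16, 7.27 and 7.16 in MRL/MpJ. The means of these 5 strains, from 7.14 to 7.48, lay between the extremes. Rsph1 was higher in KK/HlJ by 0.97 (SE 0.08, adjusted p = 2.43e-08; 1.10 without the arrays labelled C57L/J) and in C57L/J by 0.84 (adjusted p = 3.11e-07). It was lower in 129S1/SvlmJ by -0.86 (adjusted p = 2.57e-07) and in BALB/cJ by -0.51 (adjusted p = 0.000454). Between KK/HlJ and 129S1/SvlmJ the difference was 1.63, or 3.10-fold (adjusted p = 6.12e-10). Rsph4a was lowest in BALB/cJ at 7.08 ± 0.23 (difference -0.52) and highest in C57L/J at 7.93 ± 0.13 (difference 0.44). Rsph9 was lowest in MRL/MpJ, at 7.56 ± 0.13, and highest in C57BL/6J, at 8.09 ± 0.06.

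Ccdc39, a partner in the ruler that spaces spokes and inner arms, read 6.67, 6.55 and 6.82 in 129S1/SvlmJ and 7.76, 7.58 and 7.53 in C57L/J. Every 129S1/SvlmJ array was below every array of the other strains. Ccdc39 read 7.24, 7.39 and 6.90 in KK/HlJ, 7.38, 7.54 and 7.48 in C57BL/6J, 7.57, 7.33 and 7.42 in DBA/2J and 7.42, 7.41 and 7.58 in MRL/MpJ. It read 7.16, 6.93 and 6.87 in C3H/HeJ, 7.34, 7.28 and 6.92 in A/J and 6.86, 7.03 and 7.07 in BALB/cJ. C3H/HeJ and BALB/cJ overlapped and came next above 129S1/SvlmJ. Ccdc39 was lower in 129S1/SvlmJ by -0.61 (SE 0.09, adjusted p = 8.26e-05) and higher in C57L/J by 0.45 (adjusted p = 0.00229). Without the arrays labelled C57L/J the Ccdc39 difference in 129S1/SvlmJ was -0.56 (adjusted p = 3.86e-04). Ccdc40, the other ruler subunit, had no call in any strain, and its means ran from 6.01 in 129S1/SvlmJ to 6.33 in A/J. Ccdc113, a coiled-coil protein, followed the other members most closely of all (correlation 0.94) and was lower in 129S1/SvlmJ by -0.41 and higher in DBA/2J by 0.31.

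Of the central apparatus genes, Spag17 and Hydin passed the F test and Spag6 and Spag16 did not. Spag17 read 5.21, 5.13 and 5.15 in 129S1/SvlmJ, below every array of the other 8 strains, and 6.35, 6.25 and 6.22 in DBA/2J. The 129S1/SvlmJ mean, 5.16, was under the 5.25 of Sry, the brightest Y-linked gene, and above the 3.56 that the other Y-linked genes reached. SPAG17 is a scaffold of the central apparatus. Spag17 read 5.99, 5.95 and 5.65 in KK/HlJ, 5.88, 6.30 and 6.00 in C57BL/6J, 6.01, 5.97 and 5.95 in C57L/J and 5.80, 5.57 and 5.68 in C3H/HeJ. It read 5.98, 6.08 and 5.81 in A/J, 5.86, 5.86 and 5.77 in MRL/MpJ and 5.60, 5.78 and 5.41 in BALB/cJ. Apart from 129S1/SvlmJ the neighbouring strains overlapped. In 129S1/SvlmJ and DBA/2J the differences were -0.74 (SE 0.08, adjusted p = 1.06e-06) and 0.50 (adjusted p = 0.000244), and the strains differed from each other by 1.11 (adjusted p = 1.99e-07). Hydin was lower in 129S1/SvlmJ by -0.46 and in BALB/cJ by -0.37 and higher in C57BL/6J by 0.37. Spag6 has a near-identical copy, Spag6l, which is not in the list, and the probes may take signal from both. Spag6l, named after its values were seen, passed the F test (adjusted p = 0.00365) and ran from 7.40 ± 0.03 in 129S1/SvlmJ to 7.95 ± 0.08 in C57L/J.

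**Figure D2:**
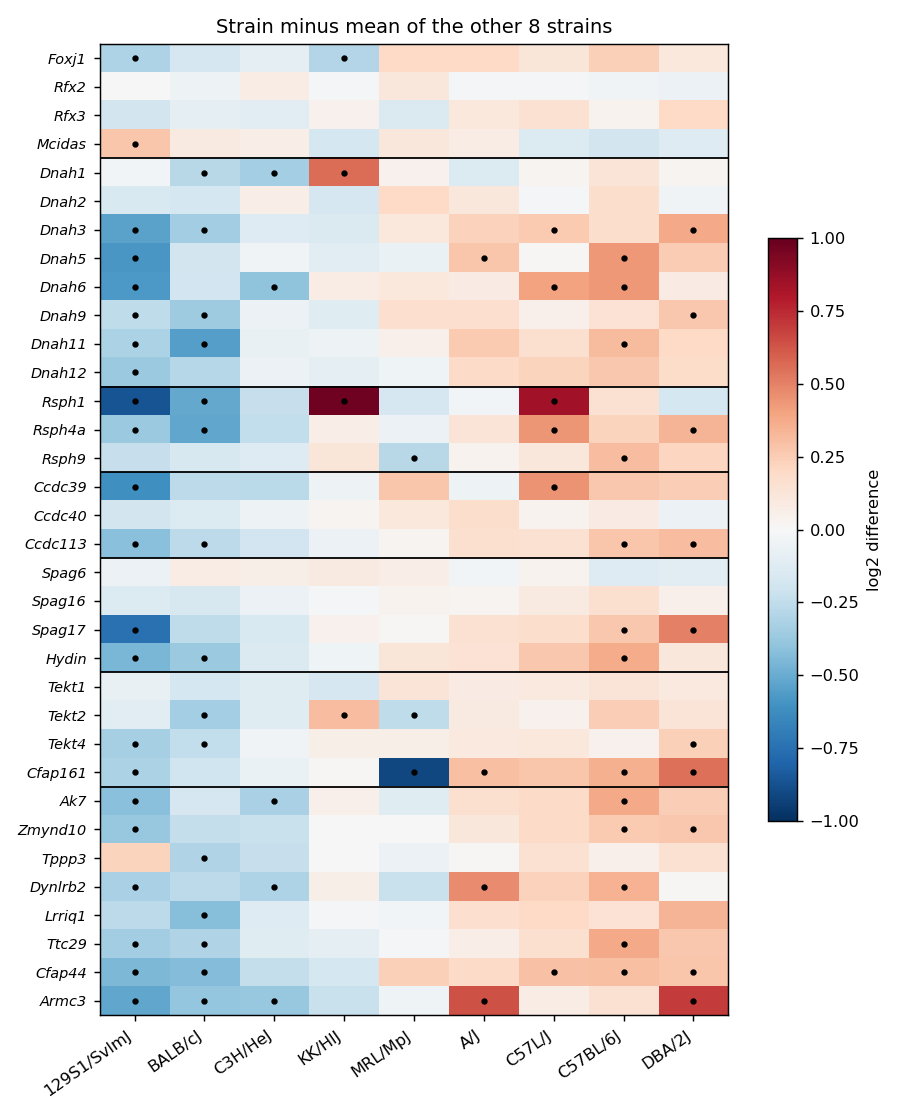
Rows are the 34 motile cilia genes, grouped by role and parted by lines, and columns are the 9 strains; colour is the log2 difference of the strain from the mean of the other 8, cut at 1 in either direction, and a dot marks an adjusted p under 0.05. The 129S1/SvlmJ column holds 21 lower calls and the BALB/cJ column 15, while the strongest single cells are Rsph1 and Cfap161.

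Within the doublets, Cfap161 set MRL/MpJ apart. Its arrays read 6.58, 6.94 and 6.45 in MRL/MpJ, below every other array of the study, and 8.02, 7.96 and 7.89 in DBA/2J. It read 7.69, 7.80 and 7.85 in C57BL/6J, 7.80, 7.66 and 7.66 in C57L/J and 7.82, 7.91 and 7.47 in A/J. In 129S1/SvlmJ it read 7.26, 7.04 and 7.24, in BALB/cJ 7.17, 7.33 and 7.36, in C3H/HeJ 7.50, 7.33 and 7.39 and in KK/HlJ 7.51, 7.56 and 7.34. The 129S1/SvlmJ and BALB/cJ arrays were thus low here too, but above MRL/MpJ. Cfap161, a protein of the inner face of the doublet, was lower in MRL/MpJ by -0.91 (SE 0.08, adjusted p = 1.47e-07) and higher in DBA/2J by 0.55 (adjusted p = 0.000157). MRL/MpJ was otherwise in the middle of the strains, with a median difference over all members of 0.03. Tekt4, a tektin filament protein, was lower in 129S1/SvlmJ by -0.33, and Tekt2 was lower in BALB/cJ by -0.34 and higher in KK/HlJ by 0.31. Tekt1 had no call.

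All 8 members of the assembly and other proteins passed the F test. Armc3, an armadillo repeat protein, read 6.68, 6.62 and 6.64 in DBA/2J and 6.53, 6.80 and 6.44 in A/J. It read 5.48, 5.37 and 5.84 in 129S1/SvlmJ and 5.59, 5.79 and 5.65 in BALB/cJ. DBA/2J and A/J stood above every array of the other 7 strains. Armc3 read 6.10, 6.24 and 6.13 in C57BL/6J, 6.14, 6.14 and 6.00 in C57L/J and 5.95, 5.83 and 6.17 in MRL/MpJ. It read 5.87, 5.96 and 5.65 in KK/HlJ and 5.78, 5.61 and 5.67 in C3H/HeJ. The C57BL/6J arrays lay above those of KK/HlJ, C3H/HeJ, BALB/cJ and 129S1/SvlmJ, which overlapped. The differences from the other strains were 0.70 in DBA/2J (SE 0.08, adjusted p = 6.81e-06) and 0.64 in A/J (adjusted p = 2.55e-05), against -0.52 in 129S1/SvlmJ. Zmynd10, which helps to assemble dynein arms in the cytoplasm, was lower in 129S1/SvlmJ by -0.38, and Ak7, an adenylate kinase that cilia need, by -0.42. Cfap44, a protein that tethers an inner arm, was lower in 129S1/SvlmJ and BALB/cJ by -0.45 and -0.43. Dynlrb2, a dynein light chain, was highest in A/J (difference 0.47, adjusted p = 0.000564), and Ttc29 in C57BL/6J (difference 0.38). Tppp3, a microtubule-bundling protein that is not limited to cilia, was lower in BALB/cJ by -0.30 and had its highest mean in 129S1/SvlmJ, 9.60. Lrriq1 was lower in BALB/cJ by -0.43.

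**Figure D3:**
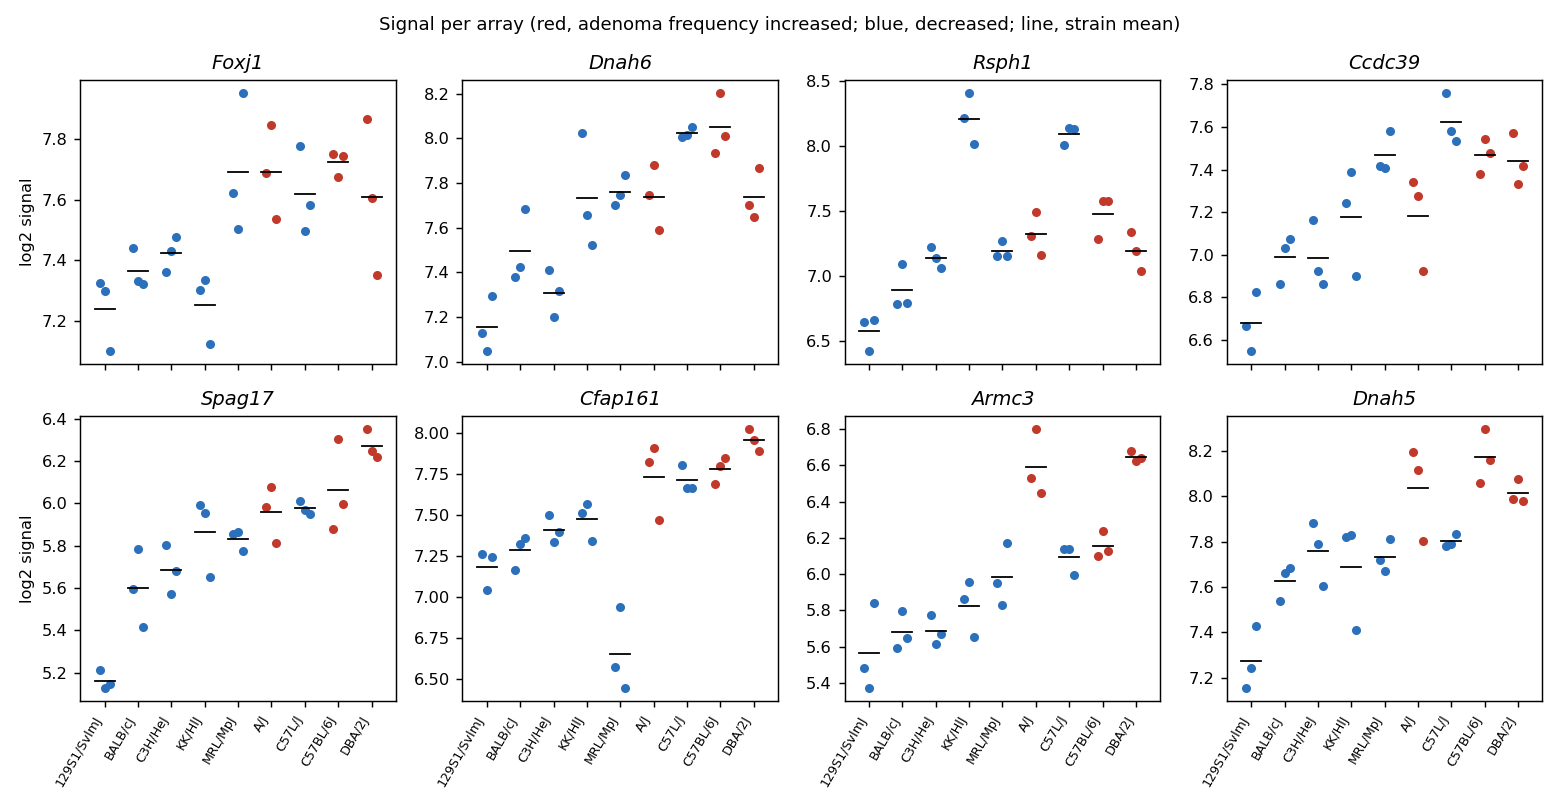
Log2 signal of 8 motile cilia genes on every array, with strains along the horizontal axis and a line at each strain mean; red marks strains of increased adenoma frequency and blue decreased. Rsph1 is high in KK/HlJ (up to 8.41) and C57L/J, Cfap161 is low in MRL/MpJ (down to 6.45), and Armc3 is high in DBA/2J and A/J (up to 6.80).

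The design compares every strain with every other, which gives 36 pairs. Where a log2 difference of 1 or more in either direction was required beside the adjusted p, 4 members were called in some pair (Rsph1 in 7 pairs, Cfap161 in 4, Armc3 in 2 and Spag17 in 1), against 4.27% of all named genes. Without that minimum 28 members were called in some pair, against 47.5% of genes. C57BL/6J had 22 members higher and 1 lower than 129S1/SvlmJ, against 5.66% and 4.59% of genes, and a median member difference of 0.55. Compared with BALB/cJ it had 23 calls, all higher, against 3.8% higher and 2.92% lower among all genes, and a median of 0.47. Between C57BL/6J and DBA/2J, both high strains, 1 member differed, against 2.38% higher and 2.37% lower in C57BL/6J. Between 129S1/SvlmJ and BALB/cJ, both low strains, 2 members differed, 1 in each direction, against 2.27% higher and 3.88% lower in 129S1/SvlmJ.

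Other cilia genes, taken from lists that leave out the members, were then set beside them. In these 5 lists 63 of 109 measured entries passed the F test, which 28.9% of all named genes did. Cfap65 stands in the list of spokes, rulers and central pair proteins by that symbol and again as Ccdc108. Its row is therefore repeated in the counts and the mean of that list. Spokes, rulers and central pair proteins had 25 of 31 pass. In 129S1/SvlmJ 14 of them were lower, against 6.43% of all named genes, and in BALB/cJ 14, against 3.01%, and the mean of this list followed the members over the 27 arrays with a correlation of 0.97. Dynein arm and assembly genes had 17 of 25 pass and doublet inner proteins 11 of 16, both with a correlation of 0.90. Intraflagellar transport genes, whose products carry cargo along motile and non-motile cilia alike, had 8 of 24 pass, near that share of all genes. Their mean still correlated with the members at 0.73. Regulators, with a correlation of 0.40, had 2 of 13 pass, below that share of all genes. One of these was Gmnc, whose product acts upstream of multicilin, and it ran from 4.35 in 129S1/SvlmJ (difference -0.65, adjusted p = 0.00438) to 5.34 in DBA/2J. The brightest Y-linked gene, Sry, stood at 5.25, and the other Y-linked genes reached 3.56. Gmnc was thus under the Sry level in 129S1/SvlmJ and little above it at its highest. Of the 63, 9 had a correlation with the members under 0.30, among them Nme7 and Dnah8. Nme7, a doublet protein, was at 9.05 in C3H/HeJ, higher than the other strains by 1.82. Dnah8, a heavy chain best known from sperm, was lowest in C57BL/6J, at 5.12, also under the Sry level, and highest in KK/HlJ, at 6.92.

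Markers of other airway and lung cells were measured to see which moved with the members. Of 7 club cell genes, which mark the secretory cells beside ciliated cells, 6 passed the F test and their mean correlated with the members at 0.54. In C57BL/6J, DBA/2J and A/J 2 of the 7 were higher, in BALB/cJ 2 were lower and in KK/HlJ 3 were lower. C3H/HeJ had 2 lower, MRL/MpJ had 1 higher and 1 lower, and C57L/J had no call. In 129S1/SvlmJ 1 was lower, with a median difference of 0.01 beside -0.32 for the cilia genes. The summed linear signal of the 7 ran from 15527 to 19198 in BALB/cJ, from 17960.5 to 18542 in 129S1/SvlmJ, from 19097 to 19978 in C57BL/6J and from 15831 to 16541 in KK/HlJ. In the other 5 strains it lay between 17206 and 21662.5, highest in A/J, and no club cell gene was dim. Scgb1a1, the main club cell secretion, did not pass (adjusted p = 0.268). Alveolar type I genes had 3 of 8 higher in 129S1/SvlmJ, with a median of 0.27, where their summed signal ran from 12096 to 15384, and 2 of 8 lower in BALB/cJ, from 10495 to 11680. C57L/J, a high strain for the cilia genes, also had 3 higher (median 0.30), and C57BL/6J had 1. C3H/HeJ had 2 lower, KK/HlJ and MRL/MpJ had 1 lower each, and DBA/2J and A/J had no call. The mean of these 8 genes correlated with the members at 0.11. The mean of the 8 cartilage genes, which mark larger airways, correlated with the members at -0.58. Of the 8, 0 passed the F test and 4 were dim. The mean of 6 airway basal cell genes correlated at -0.45, with 1 passing and 1 dim. The mean of 6 goblet and mucous cell genes correlated at 0.40, with 3 passing and 3 dim. Cardiac muscle genes, which in mouse lung also mark the walls of the pulmonary veins, had 6 of 6 pass, and their mean correlated with the members at 0.44. In BALB/cJ 5 of the 6 were lower, with a median of -0.45 and a summed signal from 2046 to 2720, and in 129S1/SvlmJ 3 were lower, with a median of -0.24 and a sum from 2835 to 3484. In A/J 4 were higher (median 0.53, sum from 3410 to 5627) and in MRL/MpJ 5 (median 0.61, sum from 4567 to 5689). C57BL/6J, a high strain for the cilia genes, had 1 lower (median -0.28, sum from 2914 to 3294), and DBA/2J had no call (sum from 2751 to 3697). KK/HlJ and C3H/HeJ had 1 higher each and C57L/J had 1 in each direction, with sums between 2333 and 4727 in these 3 strains. None of the 6 was dim. The part of these cells in the cilia gene differences was not tested.

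**Figure D4:**
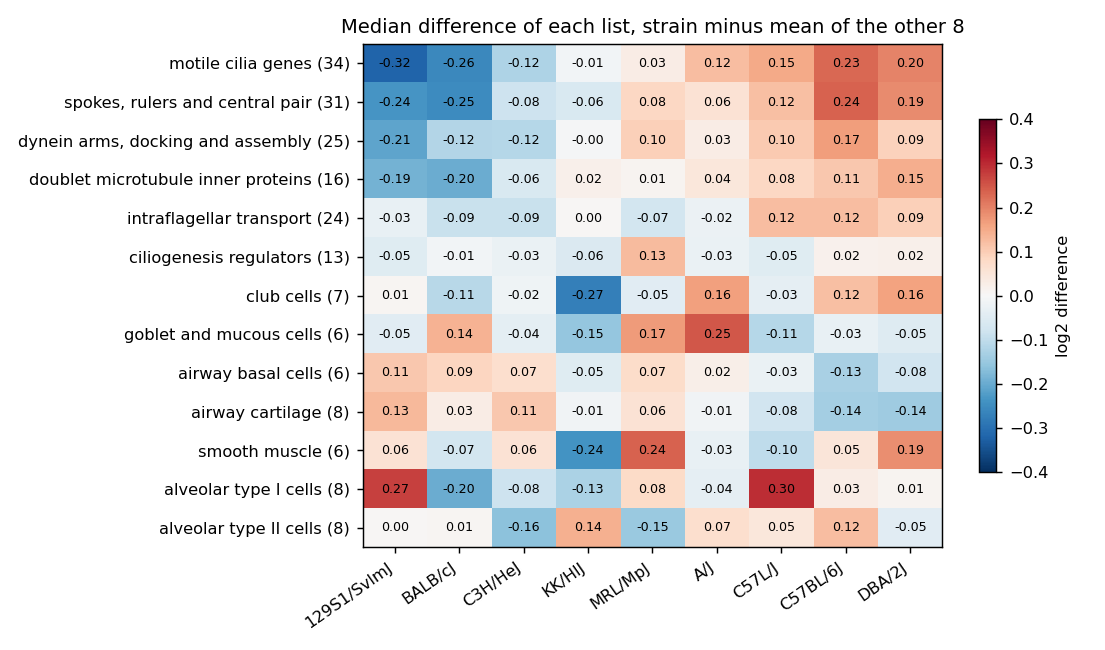
Median log2 difference of each gene list in each strain from the mean of the other 8, with the number of measured list entries in brackets. The wider cilia lists of spokes, dynein arms and doublets share the sign of the motile cilia genes in 129S1/SvlmJ and BALB/cJ, where the club cell medians are 0.01 and -0.11.

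The labels' adenoma classes were compared with the strain as the unit. For frequency, the 3 increased strains were set against the 6 decreased ones, and 0 of the 34 members were called by limma after adjustment over all genes, as were 0 of 20239 genes, with 0.647 as the smallest adjusted p of a member. At an unadjusted p under 0.05, 17 members were higher in the increased strains, against 1.59% of all genes, and 1 (Spag6, the dim member) was lower, against 6.11%. The difference was above 0 in 30 of the 34 members, with a median of 0.26, beside -0.04 over all named genes. The members vary together, so counts of members by frequency describe a shared strain order and are not separate results. The count at an unadjusted p fell to 7 without C57BL/6J and 8 without DBA/2J, and it was 13 without A/J and 22 without C57L/J (2.2% of all genes). The share of all genes was not taken without C57BL/6J, DBA/2J or A/J.

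Armc3 had the largest frequency difference, 0.66 (SE 0.14, unadjusted p = 0.000727), with strain means of 6.65 in DBA/2J, 6.59 in A/J and 6.16 in C57BL/6J against 5.56 to 6.09 in the decreased strains. With 27 arrays and the strain as a random block it was the 1 member called (adjusted p = 0.00274), among 16 genes in all. That fit gives every gene the same correlation within strains, 0.257, which can be too low for a gene with strong strain differences such as Armc3. It can therefore count mice of a strain as nearly independent. Over strain means the adjusted p of Armc3 by limma was 0.647. Dnah5 differed by 0.43 (SE 0.11, unadjusted p = 0.00255), Ccdc113 by 0.33 (SE 0.10, unadjusted p = 0.00879) and Ak7 by 0.35 (SE 0.11, unadjusted p = 0.0115). For Dnah5, Dnah11, Ccdc113, Cfap161 and Armc3 every increased strain was above every decreased one, 5 of 34 members against 0.628% of genes. Ak7 was not among these, since C57L/J stood at 7.77 and A/J at 7.74. C57L/J, of decreased frequency, was on the high side in many members.

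Restricted to the 7 strains of increased severity, 3 against 4, 18 members were higher at an unadjusted p under 0.05, against 1.6% of genes (4.61% lower), and 0 were called by limma after adjustment. Without C57L/J, 3 strains against 3, it was 27, against 2.47% of genes, with a median of 0.44, and again 0 were called by limma after adjustment. The 3 decreased strains left were those with the lowest median difference over members of all strains. C57L/J, the strain taken out, had a median difference of 0.15. The members also vary together, so the 27 restate that strain order and are not 27 separate results for frequency. In 7 members every increased strain of the 7 was above every decreased one, against 1.46% of genes. The median over the 7 strains was 0.31. For severity, 7 strains against 2, 0 members were called by limma, against 0.00988% lower among all genes, and 1, Dnah1, was lower at an unadjusted p under 0.05 (difference -0.34, unadjusted p = 0.0274), against 5.03% lower and 2.01% higher among all genes. The median difference over members was -0.00, with 16 above 0 and 18 below.

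**Figure D5:**
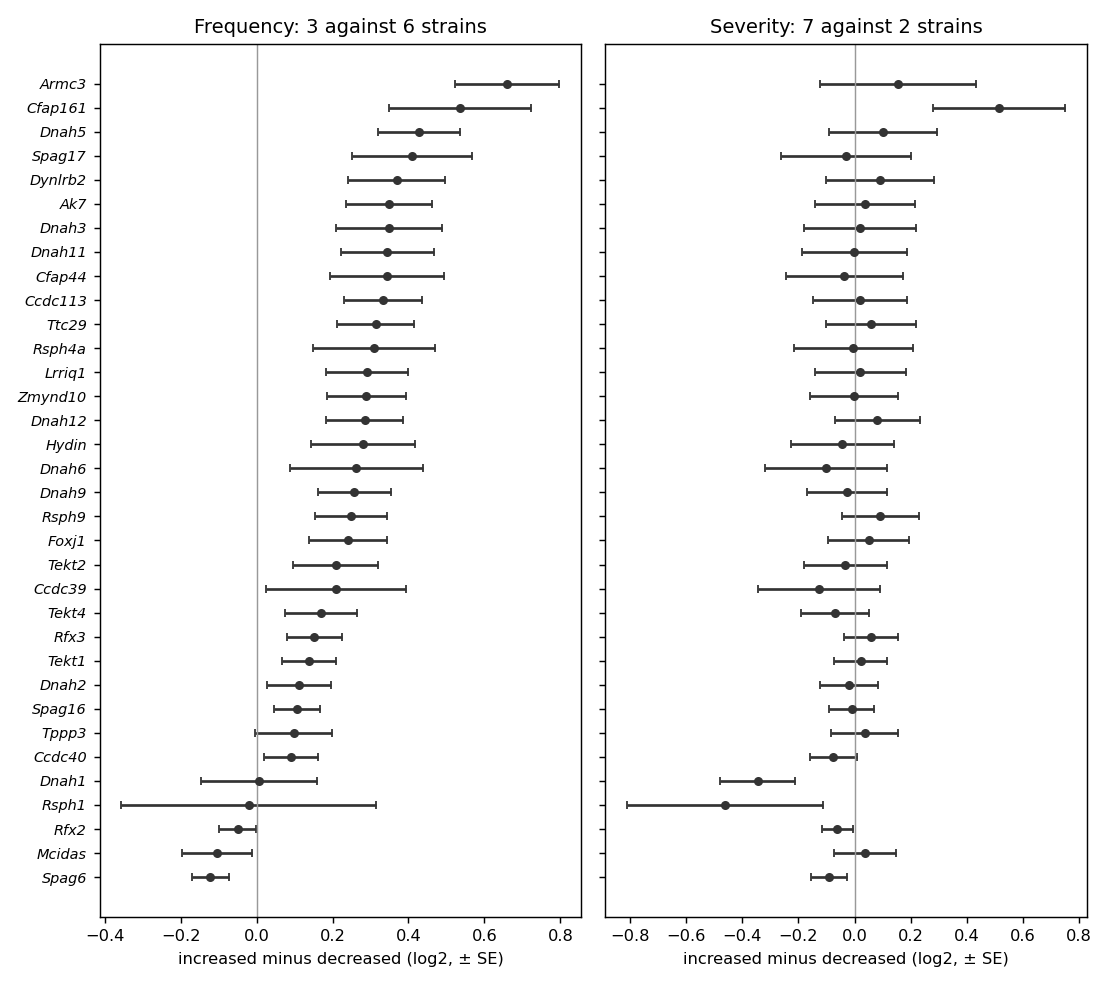
Differences between adenoma classes for each of the 34 motile cilia genes, increased minus decreased in log2 signal, with bars of ± SE, over 9 strain means. By frequency 30 genes lie above 0, from -0.12 for Spag6 to 0.66 for Armc3; by severity 16 lie above and 18 below.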

How the data were processed

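Per the labels' protocols, TRIzol and RNeasy columns were used for the RNA, a Bioanalyzer for its quality and biotin for the label. The deposited table holds log2 signal for 21225 probe sets; the log2 scale was judged from the range, 1.78 to 13.35. The affy package was used, per the submitters' processing notes; its version, the normalization and the probe set definition are not given in the sources used here. GEO's platform annotation named 20239 probe sets, and 986 without a name were left out. Precision is limited by 3 arrays per strain.

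Values were used as deposited, in R 4.3.3 with limma 3.58.1. lmFit and eBayes were fitted to all 27 arrays with a mean per strain, followed by an F test, each strain against the mean of the other 8, and 36 pairs. Adenoma classes were compared over 9 strain means. Adjusted p-values are Benjamini-Hochberg over all named genes within a comparison, with a threshold of 0.05. A probe set was called dim where no strain mean passed that of the brightest Y-linked gene, Sry. The fits were tested on simulated data.

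The members and the other gene lists were chosen with earlier results of these data known. Values on every array are given for Foxj1 and the member with the smallest F test p in each role, and, by class, for the 4 members with the smallest unadjusted p, as strain means or differences. The 20 genes most like the members were taken by their correlation with the mean over members, and up to 3 genes of a wider list by F test p. Replicate numbers did not pair mice. Alternatives were quantile normalization, median centring, dim probe sets left out, unnamed probe sets kept, a robust prior with a trend over intensity, array weights, a replicate block, other rules for pairs, a random strain block, and each array or strain left out.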

Additional observations from a re-analysis of the deposited data

Results flagged for a closer look

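A strain mean that stood far from the others of its adenoma class was found in 3 of the 68 groups of strain means tested, where chance alone gives about 1 in 20. Dnah5 in 129S1/SvlmJ, at 7.28, was the lowest of the 6 strains of decreased frequency, with the next at 7.63 and 0.667 of the whole range in between. Spag6, a dim probe set, was lowest in the same strain and class at 4.96, with the next strain at 5.05 (0.655 of the range). Rfx2 in C3H/HeJ was the highest of the 7 strains of increased severity at 6.75, with the next at 6.68 (0.569 of the range).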

How the results depend on the processing

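The number of members that differed among strains was 26 to 28 with each array left out in turn and 27 to 28 under the other settings. Leaving out arrays gave 2 to 3 higher in KK/HlJ, 4 to 14 in C57BL/6J, 2 to 7 in C57L/J, 4 to 12 in DBA/2J and 2 to 5 in A/J, and 12 to 24 lower in 129S1/SvlmJ, 1 to 7 in C3H/HeJ, 1 to 3 in MRL/MpJ and 4 to 18 in BALB/cJ. The C3H/HeJ count was 9 after quantile normalization, 11 after median centring and 2 with array weights. With no minimum difference 28 members were called in a pair. With the minimum kept it was 4, and 3 to 5 with each array left out in turn. No call of a named gene followed through the settings changed direction. Medians near 0 changed sign: KK/HlJ from -0.01 to 0.08 without its replicate 3, MRL/MpJ from 0.03 to -0.00 after quantile normalization, and the severity median, which ranged from -0.06 to 0.04. Among the named genes followed, each in the strain of its largest difference, only Foxj1 in 129S1/SvlmJ lost its call, as given above. Other single calls were compared only without the arrays labelled C57L/J. Among those lost there were Foxj1 in KK/HlJ, Mcidas in 129S1/SvlmJ, Dnah1 in BALB/cJ, Dnah5 in A/J, Ak7 in C3H/HeJ and Tekt2 in MRL/MpJ. The replicate number as a block gave 27 members by F test, 21 lower in 129S1/SvlmJ and 8 higher in DBA/2J. Same-numbered arrays had a median correlation of -0.0001 in their deviations, and for 11 of 27 arrays the closest array had the same number, so the samples share only a number. By frequency at an unadjusted p under 0.05, 7 members were higher without C57BL/6J and 8 without DBA/2J, and 1 was called with strain as a random block. By severity, the lower count of 1 became 0 after quantile normalization or without KK/HlJ, and 2 without MRL/MpJ or with the random block. The causes were not tested. Leaving out the arrays labelled C57L/J, and the counts at an unadjusted p, were chosen after seeing the data. Strain counts were followed through the settings in the main direction of each strain only. Among the counts followed, the former changed a count by more than 1.5 times only for frequency within the strains of increased severity. There 27 members were higher (median 0.44) against 17 over all strains and 18 with C57L/J kept. Without C57L/J, the decreased strains of increased severity are those lowest in the members, as given above, so that count restates the strain order. With 3 arrays per strain and 9 strains, small differences cannot be told from none.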

Other observations

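Among genes other than the members, those whose signal most closely followed the mean of the motile cilia genes over the 27 arrays were Maats1 and Lrrc34 (correlation 0.94 each), followed by Spef2 (0.92), Ppp1r36, Nek11, Nme5, Cdhr3, Kif9, Mdh1b and Clic6. Spef2 encodes a central apparatus protein, and Maats1, also named Cfap91, a protein at the radial spoke base. The next were Ccdc146, 1700013F07Rik, Lrrc6, Capsl, Ppil6, Hoatz, Lrguk, Lrrc74b, Map3k19 and Drc7, the last at 0.89. Spef2, Nme5, Kif9 and Drc7 are on the wider cilia lists, and Maats1 is there as Cfap91, a name that matched no row, so it was not counted with them. Other listed names, among them Dnaaf11 and Cfap276, also matched no row, so further genes of the 20 may be listed under another name. Of the 20, 10 had their lowest strain mean in 129S1/SvlmJ and 10 in BALB/cJ, and 13 had their highest in C57BL/6J. With strain means removed the correlations of the 20 lay between 0.52 and 0.89. Of 20205 genes outside the members, 73 (0.361%) reached a correlation of 0.80, and 20 of these were among the 109 entries of the wider cilia lists. Arrays share strain and array-wide level, and these are descriptions.

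Cdhr3, a cadherin of ciliated airway cells, had a strain mean of 7.45 in 129S1/SvlmJ, its lowest, and passed the F test (limma, adjusted p = 4.28e-08).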
